A study of Mus musculus with 6 samples.

Results

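The genes of MHC class II presentation were compared in splenic B cells after 4 hours of culture with or without CpG DNA. The set held 10 genes of the 23420 that were listed, chosen by symbol: H2-Aa, H2-Ab1, H2-Eb1, H2-DMa, H2-DMb1, H2-DMb2, H2-Oa, H2-Ob, Cd74 and Ciita. All 10 were listed, and all 10 passed the filter on low values that left 11233 genes for testing. The B cells were purified with beads from WT BALB/c mice of 7 to 11 weeks and were cultured at 10 M cells per mL, either with 10 μg/mL of CpG ODN 1826, a synthetic oligonucleotide that activates TLR9, or without it. Each condition had 3 samples, with replicate numbers from 1 to 3. Replicates 1 and 2 were female and replicate 3 was male. Neither group carried a transgene or a deletion, and the comparison asks which class II genes differ between cells with and without CpG. The cells were a bead-purified population and not a sorted subset.

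MHC class II molecules are heterodimers of an α and a β chain that display peptides from endosomes to CD4+ T cells. In the mouse they are I-A, encoded by H2-Aa and H2-Ab1, and I-E, encoded by H2-Ea and H2-Eb1. The invariant chain, Cd74, fills the groove of new dimers and guides them to endosomes, H2-DM exchanges its remnant for antigenic peptides, and H2-DO, found mainly in B cells, inhibits H2-DM. Ciita is the coactivator that is recruited to class II promoters by factors bound at the X and Y boxes. B cells express class II without induction and use it to obtain help from T cells.

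The I-A, I-E and invariant chain genes changed little or moderately after CpG, while the genes of H2-DM and H2-DO fell by more. Of the 10 genes, 7 fell, 0 rose, and 3 (H2-Ab1, Cd74 and Ciita) did not pass an FDR of 0.05. With the replicate number as a block in limma, 8 fell, Ciita being the gene added. Among all genes tested with limma, 36.7% fell and 37.6% rose at this FDR. A fall past a log2FC of −1 was found for 5 of the 10 genes (H2-DMa, H2-DMb1, H2-DMb2, H2-Oa and H2-Ob), against 15.3% of all genes tested. The median log2FC of the 10 genes was −1.01, and that of all genes tested was 0.00. In 7 of the 10, every CpG-stimulated sample lay under every unstimulated sample, which held for 38.6% of all genes tested. Values throughout are log2 CPM (read counts scaled to a library total and quantile normalized across the samples). The log2FC is CpG-stimulated minus unstimulated on this scale, and FDR is the Benjamini-Hochberg adjusted p of limma over all genes tested. In bulk samples, fewer cells of a type and less RNA per cell cannot be told apart.

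**Figure D1:**
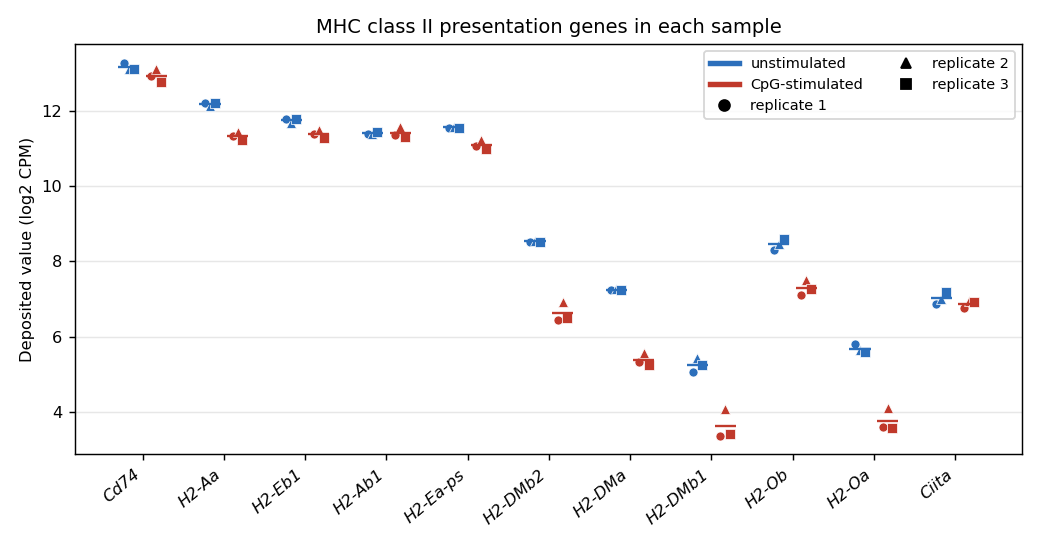
Deposited value (log2 CPM, vertical axis) of each of the 10 genes and of H2-Ea-ps in the 3 unstimulated (blue) and 3 CpG-stimulated (red) samples, with a symbol for each replicate number and a line at the group mean. The 5 genes of H2-DM and H2-DO separate by more than 1 log2 unit in their means, while Cd74, H2-Ab1 and Ciita overlap between the groups.

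The upstream sequences of these genes were read first, because class II genes share a promoter module. Entries in the RefSeq promoter table (GRCm38.p6, strain C57BL/6J and not BALB/c) were found for 7 of the 10 genes. The 250 bases before each start site were searched on both strands for the letters AACNNATG, used here as the core of the X box, for ATTGG, the Y box, and for TGACGTCA, a cyclic AMP response element. The X box letters were chosen after these sequences had been seen. An X core followed by a Y box 10 to 30 bases later was present in H2-Eb1, H2-DMb1, H2-DMb2 and H2-Ob, and in 53 of all 32851 promoters (0.161%). Alone, the X core letters were in 7.71% of all promoters, the Y box in 33.8% and the cyclic AMP response element in 1.55%. The stretches that carry these letters in 4 genes with different changes after CpG are shown from 5′ to 3′ on the strand of the gene, with the matches in capitals.
H2-Eb1: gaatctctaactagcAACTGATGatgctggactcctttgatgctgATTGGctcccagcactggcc
H2-DMb2: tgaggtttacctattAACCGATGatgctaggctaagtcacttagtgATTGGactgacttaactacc
H2-Ob: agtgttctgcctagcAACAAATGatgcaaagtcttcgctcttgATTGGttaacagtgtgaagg
H2-Aa: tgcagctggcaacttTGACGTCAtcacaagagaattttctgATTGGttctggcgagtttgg
They lie at chr17:34305763-34305827 (H2-Eb1, plus strand), chr17:34145113-34145178 (H2-DMb2, plus strand), chr17:34238805-34238867 (H2-Ob, plus strand) and chr17:34287852-34287912 (H2-Aa, minus strand), all upstream of the RefSeq start site and outside annotated exons. The stretch of H2-DMb2 lies inside the gene as GENCODE annotates it (chr17:34143307-34151555), in an intron of a longer transcript. The X core and the Y box were 22 bases apart in H2-Eb1, 23 in H2-DMb2 and in H2-DMb1, and 20 in H2-Ob. The Y box of H2-Aa began 48 bases before its start site and that of H2-Oa 43 bases before. Neither window matched the X core letters, which does not show that an X box of other letters is absent. Neither of the 2 entries of H2-DMa held the module. Thus genes with the module included H2-Eb1, with a log2FC of −0.36, and H2-DMb2, with −1.91. A match is a description of the reference sequence and does not show that a factor was bound.

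The classical α and β chain genes were among the most abundant transcripts of these cells. H2-Aa, the α chain of I-A, was 11.32, 11.44 and 11.22 in CpG-stimulated samples 1 to 3, and 12.21, 12.13 and 12.19 in unstimulated samples 1 to 3. The groups did not overlap, and the fall was larger than the spread within either, with an SD of 0.11 with CpG and 0.04 without. Its log2FC was −0.85 (SE 0.08, limma FDR 5.36e-06), so that CpG-stimulated cells held 55.3% of the unstimulated level. In order of level, H2-Aa was in place 5 of all genes in each unstimulated sample and in places 15 to 24 with CpG. As quantile normalization sets the values at each place, changes of genes this high reflect their place in that order.

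H2-Ab1, the β chain partner of H2-Aa, did not move with it. It was 11.36, 11.57 and 11.29 with CpG, and 11.39, 11.37 and 11.42 without. The unstimulated values lay inside the range of the CpG-stimulated values. Its log2FC was 0.01 (SE 0.09, 95% interval −0.18 to 0.20, limma FDR 0.903). Without CpG-stimulated replicate 2, its highest sample, the log2FC was −0.07, with an FDR of 0.328.

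The genes of I-E fell by a smaller amount than H2-Aa. H2-Eb1, the β chain, was 11.38, 11.50 and 11.26 with CpG, and 11.79, 11.67 and 11.78 without. Every CpG-stimulated sample was lower, with a log2FC of −0.36 (SE 0.08, limma FDR 0.00263), or 77.7% of the unstimulated level. The call did not hold when no filter was set on low values (FDR 0.107) or in the females alone (FDR 0.0671). The α chain gene is functional in BALB/c mice and a pseudogene in the reference strain, and it was listed as H2-Ea-ps. It is not among the 10 genes, and it is given here as the partner of H2-Eb1. H2-Ea-ps was 11.08, 11.21 and 10.97 with CpG, and 11.55, 11.58 and 11.54 without. Its groups did not overlap either, with a log2FC of −0.47 (SE 0.08, limma FDR 0.000359) and 72.2% of the unstimulated level left.

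Cd74, the invariant chain, was the most abundant of the set, in place 2 of all genes in every unstimulated sample. In CpG-stimulated samples 1 to 3 it was in places 3, 2 and 3. As quantile normalization sets the values at each place, its values reflect these places. It was 12.93, 13.10 and 12.75 with CpG, and 13.28, 13.10 and 13.10 without. CpG-stimulated replicate 2 was level with the lower unstimulated samples, and the other CpG-stimulated samples were under all of them. The log2FC of Cd74 was −0.23 (SE 0.11, 95% interval −0.48 to 0.01, limma FDR 0.0804). Without CpG-stimulated replicate 2, it was −0.32 with an FDR of 0.00748. Without CpG-stimulated replicate 3, it was −0.15 with an FDR of 0.275, so that the value rests on single samples and on their places. Cd74, H2-Aa, H2-Ab1, H2-Eb1 and H2-Ea-ps together took 1.76%, 1.99% and 1.64% of all CPM in CpG-stimulated samples 1 to 3, and 2.37%, 2.24% and 2.27% in unstimulated samples 1 to 3. The 2 ranges of this share, which was taken from normalized values, did not overlap.

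**Figure D2:**
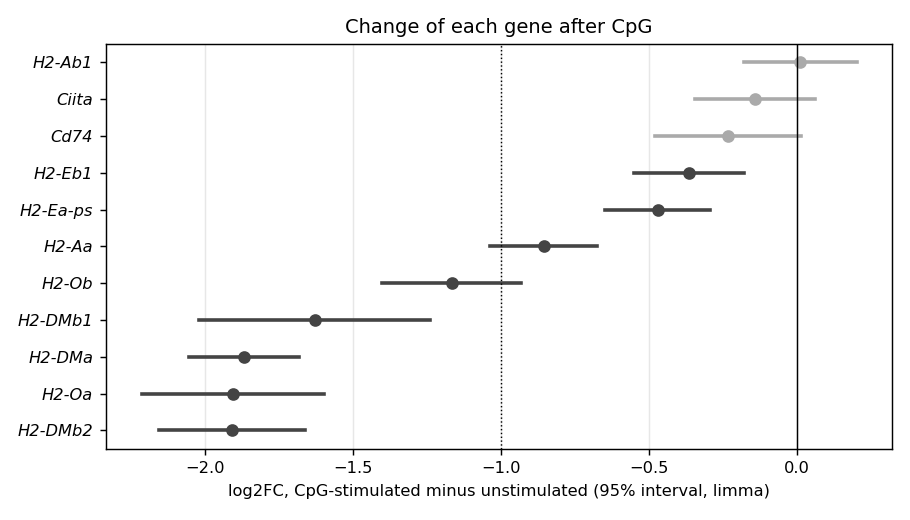
log2FC (horizontal axis, CpG-stimulated minus unstimulated) of the 10 genes and H2-Ea-ps with its 95% interval from limma; black marks an FDR under 0.05, grey the others, and the dotted line a log2FC of −1. The intervals of H2-DMa, H2-DMb1, H2-DMb2 and H2-Oa lie under −1, that of H2-Ob crosses it, and those of H2-Ab1, Ciita and Cd74 cross 0.

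H2-DM is built from the α chain H2-DMa and the β chains H2-DMb1 or H2-DMb2. All of these genes fell. H2-DMa was 5.32, 5.57 and 5.26 with CpG, and 7.24, 7.28 and 7.23 without. The groups were far apart compared with their SD of 0.16 and 0.03, and the log2FC was −1.87 (SE 0.08, limma FDR 5.01e-08), with 27.4% of the unstimulated level left. H2-DMb2 was 6.45, 6.92 and 6.49 with CpG, and 8.51, 8.56 and 8.53 without. Its log2FC was −1.91 (SE 0.11, limma FDR 1.98e-07), or 3.76-fold lower. H2-DMb1, the lower of the β chain genes, was 3.38, 4.07 and 3.43 with CpG, and 5.08, 5.43 and 5.26 without. The groups did not overlap, although CpG-stimulated replicate 2 stood above the other 2, and the log2FC was −1.63 (SE 0.17, limma FDR 1.36e-05), or 3.09-fold lower. The β chain genes are near copies of each other. Of the stretches of 75 bases in the coding transcripts of H2-DMb1, 19.1% also occurred in H2-DMb2, and 0 stretches of H2-DMa were shared with another gene. How reads in shared stretches were divided is not given in the sources used here, so the separate values of H2-DMb1 and H2-DMb2 are uncertain to that extent.

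H2-DO, the inhibitor of H2-DM, is a dimer of H2-Oa and H2-Ob. H2-Oa, its α chain, was 3.62, 4.11 and 3.59 with CpG, and 5.81, 5.64 and 5.59 without. The lowest unstimulated sample was above the highest CpG-stimulated sample, and the log2FC was −1.91 (SE 0.14, limma FDR 7.98e-07), or 3.75-fold lower. H2-Ob, its β chain, was 7.11, 7.50 and 7.26 with CpG, and 8.31, 8.47 and 8.60 without. It fell by less than H2-Oa, with a log2FC of −1.17 (SE 0.11, limma FDR 3.84e-06) and 44.6% of the unstimulated level left. Tested against a log2FC of 1 instead of 0, the fall of H2-Ob did not pass (FDR 0.320), while those of H2-Oa and the H2-DM genes did.

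Ciita encodes the master regulator of the class II genes. It was 6.76, 6.94 and 6.93 with CpG, and 6.86, 6.99 and 7.20 without. The groups overlapped, and the log2FC was −0.14 (SE 0.09, 95% interval −0.34 to 0.06, limma FDR 0.184). With the replicate number as a block in limma, the FDR was 0.0421 at the same log2FC, which changed its call. Leaving out 1 sample also moved its value, to −0.05 without unstimulated replicate 3, −0.08 without CpG-stimulated replicate 1 and −0.22 without unstimulated replicate 1, with an FDR of 0.616, 0.448 and 0.0526. Ciita was not among the genes that separated clearly, although 7 of the other 9 fell. Those that did not were H2-Ab1 and Cd74. The transcripts of Ciita from its different promoters cannot be told apart in values per gene. The genes with profiles most like that of Ciita over the 6 samples, by Euclidean distance of centred log2 CPM, were Gm8369 (0.0518), Irf3 (0.103), Hmg20b (0.116), Dnajc4 (0.117) and Fopnl (0.125).

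The order of levels within the set was read per kb of exon, from the mean log2 CPM per kb. In unstimulated cells this was 12.66 for Cd74, 12.00 for H2-Aa, 11.12 for H2-Ab1 and 11.01 for H2-Eb1, followed by 7.73 for H2-DMb2, 6.65 for H2-Ob, 5.83 for H2-DMa, 5.56 for H2-Oa, 4.77 for H2-DMb1 and 3.98 for Ciita. Cd74 and the classical chains thus stood 3.28 or more log2 units above the genes that edit peptide loading. The neighbors H2-Ab1 and H2-Eb1 differed by 0.11 log2 units, with an SD of 0.03 and 0.07 in each gene, and H2-DMa and H2-Oa by 0.28, with 0.03 and 0.12. With CpG, the mean log2 CPM per kb of H2-Aa (11.15) and H2-Ab1 (11.13) differed by less than their SD of 0.11 and 0.15. Ciita, last without CpG, was then at 3.84, above H2-Oa (3.65) and H2-DMb1 (3.14), although its own mean had changed by −0.14 only. BALB/c mice carry another haplotype of this region than the reference genome to which reads were aligned. Reads over variable exons may be lost for that reason in both groups alike, so levels of different genes are less certain than differences between groups.

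The balance between partner genes was compared within each sample, as a ratio on the log2 scale, in which a constant factor per sample cancels. Quantile normalization is not such a factor and can still alter the ratios. The ratio of H2-DM to H2-DO genes (the mean of 3 genes less the mean of 2) was −0.31, −0.29 and −0.37 with CpG, and −0.12, 0.04 and −0.09 without. All CpG-stimulated samples were lower, by 0.27 in the mean, with an exact two-sided permutation p of 0.1, the smallest that 3 against 3 samples allow. Of 9 ratios computed, the other 8 were chosen after the values had been seen. The ratio of H2-Aa to H2-Ab1 was −0.04, −0.14 and −0.07 with CpG, and 0.82, 0.76 and 0.77 without. It differed by −0.87 between the groups, far more than the spread within either (SD 0.05 and 0.03). H2-Oa to H2-Ob differed by −0.74 and did not overlap, with −3.50, −3.39 and −3.67 with CpG and −2.49, −2.83 and −3.01 without. By contrast, the ratio of H2-DMa to H2-DMb2 overlapped between the groups and differed by 0.04 (exact permutation p = 0.7). The ratio of H2-Ea-ps to H2-Eb1 differed by −0.10. In 8 of the 9 ratios the exact permutation p was 0.1, or 0.113 after Benjamini-Hochberg adjustment, which this design cannot lower.

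**Figure D3:**
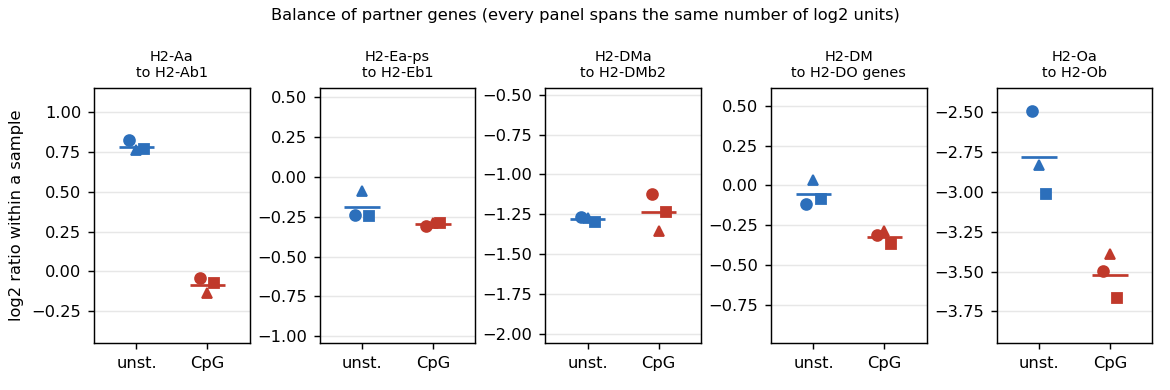
Ratio of partner genes within each sample (vertical axis, log2 ratio; the same span in each panel) in unstimulated (blue) and CpG-stimulated (red) samples, with the replicate symbols circle, triangle and square for 1, 2 and 3 and a line at the mean. H2-Aa to H2-Ab1 shifts by −0.87 and H2-Oa to H2-Ob by −0.74, while H2-DMa to H2-DMb2 differs by 0.04.

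CpG-stimulated replicate 2 was the highest of the 3 CpG-stimulated samples in 10 of the 10 genes, which was noticed after the values had been seen. It was the highest in 35.1% of all genes tested. In the unstimulated group, the highest sample was replicate 1 in 4 genes, replicate 2 in 3 and replicate 3 in 3. Differences between samples with the same number were smallest in size for number 2 in all of the 9 genes other than H2-Ab1, with Cd74 at −0.35, 0.00 and −0.35 and H2-Oa at −2.20, −1.53 and −2.00 for numbers 1 to 3. The summed level of 5 erythroid markers was also high in replicate 2 of both groups, at 12.26 log2 CPM with CpG and 11.91 without, against 8.58 to 9.26 in the other 4 samples, and its part in the values of the class II genes was not tested. Without CpG-stimulated replicate 2, the 7 genes that fell still passed, with log2FC values from −2.08 to −0.42.

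Of the 10 genes, 8 lie together in the class II region of the MHC. From H2-Oa (chr17:34092340-34095234) to the end of H2-Ea-ps the region spans 252 kb of mm10, and 15 genes within it were tested. H2-DMa, H2-DMb2 and H2-DMb1, at 27.2 to 67.9 kb from the start of H2-Oa, had the lowest log2FC together with H2-Oa itself. Between them and H2-Ob are Psmb9, Tap1, Psmb8 and Tap2, which serve class I presentation. Their log2FC was −0.32 (limma FDR 0.0770, not called) for Psmb9, −0.50 for Tap1, −0.72 for Psmb8 and −0.52 for Tap2. H2-Ob, H2-Ab1, H2-Aa and H2-Eb1 follow with −1.17, 0.01, −0.85 and −0.36, and H2-Eb2, a further β chain gene, had −0.46. H2-DMa overlaps Brd2, a bromodomain gene on the opposite strand, over 3094 bases, and Brd2 had a log2FC of −0.48. Ciita overlaps Dexi on the opposite strand, with a log2FC of 0.21 (limma FDR 0.193). Whether strand was used in counting is not given in the sources used here, so reads in these overlaps may be shared.

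**Figure D4:**
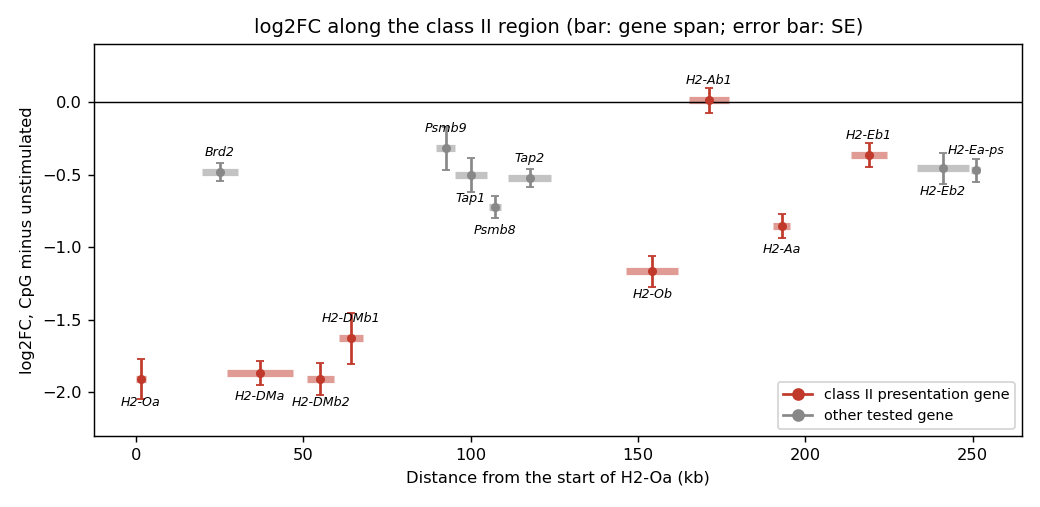
log2FC (vertical axis, with SE) of the 15 tested genes against their distance in kb from the start of H2-Oa (horizontal axis), in red for genes of the set and grey for others; bars show the span of each gene. H2-Oa and the H2-DM genes lie between −1.91 and −1.63, Brd2 and the class I genes among them between −0.72 and −0.32, and H2-Ab1 at 0.01.

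Factors that bind class II promoters and regulators of Ciita did not move one way. Neither did all genes tested, of which 37.6% rose and 36.7% fell at an FDR under 0.05. Of 9 factors and coactivators of class II promoters, 2 rose, 2 fell and 5 did not pass, with a median log2FC of −0.10. Rfx5, a subunit of the complex at the X box, rose from 6.28 ± 0.09 to 7.20 ± 0.07 (SD, n = 3), with a log2FC of 0.92 (limma FDR 1.24e-06). The histone acetyltransferases Ep300 and Crebbp, which are coactivators of many genes, had a log2FC of −1.17 and −1.12. Of 8 regulators of Ciita, 2 rose and 4 fell, with a median of −0.25. Irf8 (log2FC 1.65, limma FDR 4.05e-08) and Irf4 (0.97), interferon regulatory factors of B cells, rose, and Irf2 fell from 8.16 ± 0.09 to 6.66 ± 0.18 (SD, n = 3, limma FDR 2.67e-07).

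Genes that prepare peptides and genes that remove class II from the surface were described in the same way. Of 11 genes of antigen processing, 6 fell, 2 rose and 3 did not pass, with a median log2FC of −0.37. Cathepsin E (Ctse) had a log2FC of −1.66, cystatin C (Cst3), a protease inhibitor, of −1.56, and cathepsin B (Ctsb) of −1.33. March1, the ubiquitin ligase that sends class II and CD86 to degradation, was 3.07, 3.39 and 3.20 with CpG, and 6.13, 6.08 and 6.43 without. Its fall was larger than that of any of the 10 genes, with a log2FC of −2.99 (SE 0.12, limma FDR 2.90e-08), and 0.783% of all genes tested had a lower one. In the list of 8 genes of class II turnover and tetraspanins, the other gene that fell was Cd37 (−0.47), and the tetraspanins Cd81 (log2FC 2.38) and Cd82 (1.21) rose. The median of that list was 0.15. Among all genes tested, 36.7% fell and 37.6% rose. These lists were chosen with results of these data known, and their counts are descriptions.

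Class I presentation was taken as the set most like class II. Of its 22 listed genes, 18 were tested, and 13 fell, 2 rose and 3 did not pass, with a median log2FC of −0.36. Among all genes tested, 36.7% fell and 37.6% rose. None of the 18 class I genes had a log2FC past 1 in either direction, against 5 of the 10 class II genes. The class I values ran from −0.76 (Psmb10, a subunit of the immunoproteasome) to 0.82 (Erap1, an aminopeptidase that trims peptides). Psmb8, another immunoproteasome subunit, fell by 0.72 on the log2 scale. The difference between the 2 sets was not tested.

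**Figure D5:**
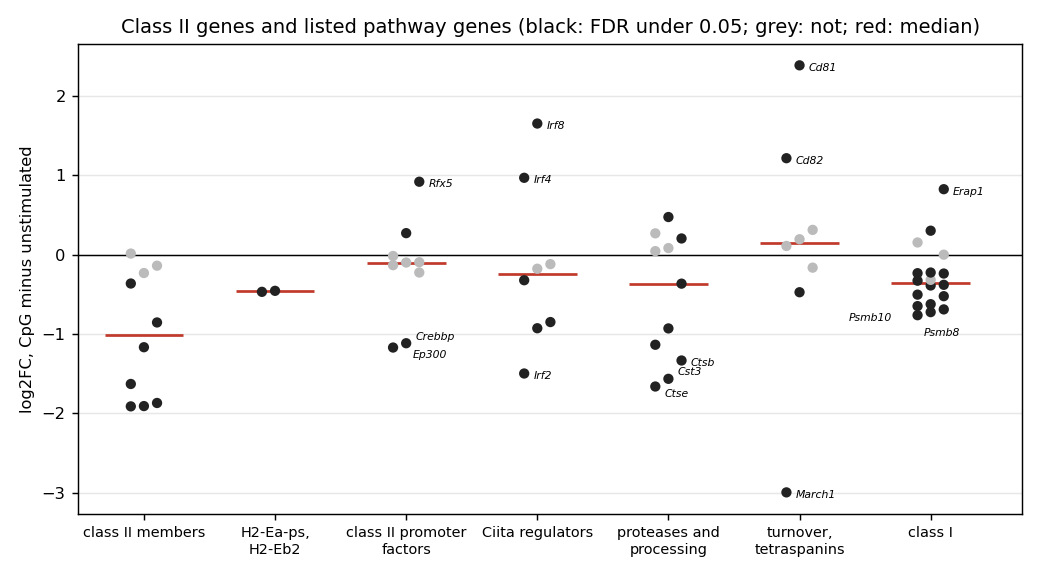
log2FC (vertical axis) of the 10 class II genes and of each tested gene in 6 other lists, with black points at a limma FDR under 0.05, grey points for the others and a red line at the median of each list. The median is −1.01 for the class II genes and lies between −0.46 and 0.15 in the other lists.

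The cells carried the markers of B cells. For each marker, the mean over the 6 samples was set against 10 reads' worth. All 8 B cell markers were above it, and their summed level was 11.40 to 11.59 log2 CPM with CpG and 11.98 to 12.18 without, so that it was lower with CpG as well. Among them, Cd22 (log2FC −2.40), Cd79a (−1.63) and Cd79b (−1.17) fell, while Ms4a1 rose (0.77). Other cells that carry class II were looked for by their markers. Of 7 dendritic cell markers, 2 were above 10 reads' worth, Zbtb46 (log2FC 1.62) and Flt3 (1.33), and the summed level was higher with CpG, 6.49 to 6.72 against 4.93 to 5.25. Clec9a, Cd209a and Clec10a were at or under the level of 3 reads in all 6 samples. Itgax and Xcr1 were above that level in some samples, with means under 10 reads' worth. Of 8 macrophage and monocyte markers, 4 were above 10 reads' worth, with a summed level of 4.35 to 4.71 with CpG and 3.62 to 4.18 without, and Fcgr1 was at or under 3 reads. These markers did not move one way. Cd68 (log2FC 1.11) and Adgre1, listed as Emr1 (0.83), rose, and Csf1r fell (−1.61, limma FDR 0.0180). Lyz2 (−0.21) and Itgam (−0.07) did not pass, and Fcgr1, C1qa and Vcam1 were not tested. The summed level of 3 plasmacytoid dendritic cell markers was 4.61 to 4.70 with CpG and 5.25 to 5.38 without. Of these, 2 were above 10 reads' worth, Pacsin1, which made up most of the sum, and Ccr9, while Siglech was not. The summed level of 4 plasma cell markers was lower with CpG (8.67 to 9.07 against 9.51 to 10.07). Jchain, listed as Igj, made up most of that sum and had a log2FC of −0.87. Sdc1 also fell (−0.93), Prdm1 did not pass (−0.12, limma FDR 0.548), and Tnfrsf17 was not tested. None of 6 T cell markers, 4 NK cell markers or 2 listed neutrophil markers had a mean above 10 reads' worth. In single samples, the NK cell marker Klrb1c was above it, at −0.84, 0.23 and 0.23 with CpG and −4.27, −4.79 and −4.90 without. That level is −0.76 log2 CPM, and S100a9, a neutrophil marker, passed it in unstimulated replicate 2 (−0.58). The summed level of the NK cell markers was −0.48 to 0.49 with CpG and −2.28 to −1.68 without. The part of these other cells in the values of the class II genes was not tested.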

How the data were processed

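RNA-seq values of 6 samples were used. Reads had been mapped to mm10 (STAR 2.6.1a) and counted by gene (featureCounts, Subread 2.0.1), after which the authors applied quantile normalization and voom, so the deposited values are log2 CPM and not counts; the versions are from the submitters' processing notes. The most common low value, −5.15, was taken as that of a gene without reads (0.5 reads), which gives a common library of 17.8 M reads, though single genes lie under it; depth of single samples is not in the values, and a change in total RNA cannot be seen. Levels of 10 and 3 reads were set from it and are approximate.

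CpG-stimulated and unstimulated samples were fitted in R 4.3.3 by lmFit and eBayes (with a trend) of limma 3.58.1, over genes above 10 reads' worth in at least 3 samples. The procedure was tested on simulated data. No label ties the samples to separate cultures beyond the replicate numbers, so p values reflect the spread between these samples. Deviations from the group means correlated at 0.435, 0.224 and 0.300 across genes for the same number and at −0.281 to 0.0279 otherwise, which meets the rule set for paired numbers. The fit without the block stayed the main one, as written in the design, and the blocked value is given where it changes a call. The values also carry a shift by number (1481 genes were equal, within 0.0005, in both samples of each number but not between numbers), which can give such correlations. Members and lists were chosen with earlier results of these data known. The genes named besides are the 3 largest changes past the FDR of each list, H2-Ea, and the 5 genes nearest to Ciita; Cd37, Brd2, Dexi, H2-Eb2, genes of the class II region and markers were added. Sequences are from RefSeq, exons from GENCODE M21. Alternatives covered the filter, scale, centring, variance trend, block, treat, each sample left out and females alone.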

Additional observations from a re-analysis of the deposited data

How the results depend on the processing

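Of 150 values of the 10 genes under the alternatives, 142 kept their direction and their side of an FDR of 0.05. Tested against a log2FC of 1, 4 genes fell instead of 7, because H2-Aa, H2-Eb1 and H2-Ob did not pass. The FDR of H2-Eb1 was also above 0.05 with no filter and in the females alone. Cd74 passed without CpG-stimulated replicate 2, and Ciita passed with the replicate block, which took the genes that fell from 7 to 8, gave 8677 instead of 8350 called genes in all, and changed no other call among the 10. H2-Ab1 turned to −0.069 without CpG-stimulated replicate 2, and lay between −0.069 and 0.070 with a sample left out in turn. Among other named genes, 314 of 330 values kept direction and call, and Irf3 turned to 0.00317 without unstimulated replicate 3 (range −0.15 to 0.00317). The ratio of H2-DM to H2-DO genes kept its sign throughout. Both ways of rescaling the samples left the median of all genes within 0.1 of 0. Quantile normalization and centring on the median nearly fix this in advance, so it is no check of the scale. Depth of single samples is not in the values, so its effect on them could not be checked. On the scale of the common library, the lowest gene of the set, H2-DMb1, stood at about 184 reads' worth or more.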
